A study of Mus musculus with 15 samples.

Results

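Actin messenger RNA was followed in mouse ventricle after the RNA-binding protein Celf1, which controls splicing and the decay of messenger RNA, had been switched on in heart muscle. The 6 conventional actin genes, Actc1, Acta1, Acta2, Actg2, Actb and Actg1, were taken by symbol from a table of 16042 genes, and all 6 were found. Ventricles came from 15 mice aged 20 to 22 weeks in 5 groups of 3. The induced mice (MHCrtTA/TRECUGBP1) carried the doxycycline-dependent activator rtTA under the alpha myosin heavy chain promoter, which is active in heart muscle cells, together with Flag-tagged human CELF1 of the LYLQ isoform under a promoter that the activator switches on. They were fed doxycycline at 2 g/kg for 12 hours, 24 hours, 72 hours or 7 days. The control mice (MHCrtTA) carried the activator alone and were fed the same diet for 72 hours, so only the 72 hour mice were matched to them for time on doxycycline. Food was withheld for 2 to 3 hours before the diet began, and polyadenylated RNA was prepared from ventricle freed of the atria and of a little of the apex. Celf1, listed as Cugbp1, had a mean of 305.2 RPKM (reads per kilobase of gene, scaled to the mapped reads of the library) at 12 hours, 378 RPKM at 24 hours, 172.8 RPKM at 72 hours and 32.79 RPKM at 7 days, against 34.41 RPKM in control mice. Its log2 difference from control at 7 days was -0.07 ± 0.20 (adjusted p = 0.771), so in the mice labelled 7 days the Cugbp1 value was not above the control level. The transgene is human and the reads were aligned to the mouse genome. How many transgene reads the Cugbp1 value holds beside those of the mouse gene was not tested.

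Actins assemble into the filaments on which myosin pulls and which shape and move every cell. Actc1 and Acta1 encode the cardiac and skeletal actins of the sarcomere, Acta2 and Actg2 the vascular and enteric actins of smooth muscle, and Actb and Actg1 the beta and gamma actins of the cytoplasm. In the adult mouse heart the cardiac form dominates, Acta1 is a fetal form known to return under load, and Acta2 also marks vessel walls and myofibroblasts. Many actin genes are under the control of serum response factor, which binds a short element called the CArG box and is itself tuned by the pool of free actin monomers.

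In the GENCODE vM1 annotation of NCBIM37, the assembly called mm9, all 6 genes lie on the minus strand of different chromosomes. Actc1 lies at chr2:113873018-113879284, Acta1 at chr8:126415669-126418651 and Acta2 at chr19:34315580-34329826. Actg2 lies at chr6:83462899-83486259, Actb at chr5:143664794-143668433 and Actg1 at chr11:120207004-120209856. The proteins translated from these models have 375 residues for Actb and Actg1, 376 for Actg2 and 377 for the other three. Actb and Actg1 were 98.9% identical with 4 residues differing, Acta1 and Actc1 were 98.9% identical with 4 residues differing, and Acta2 and Actg2 were 99.2% identical with 3 residues differing. Between a muscle and a cytoplasmic actin identity was 93.1% to 94.1%. Coding sequences were less alike, at 81.5% to 88.7% identity over the pairs, which is what lets reads be told apart.

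Promoters are shown because the CArG box links actin genes to serum response factor. RefSeq promoter sequences of GRCm38.p6 were at hand for 4 of the 6 actins, on the minus strand at chr2:114052876-114053125 for Actc1, chr8:123894776-123895025 for Acta1, chr19:34255374-34255623 for Acta2 and chr11:120348496-120348745 for Actg1. Each run holds the 250 bases before the annotated start, 5′ to 3′. Capitals mark CArG boxes (CC, then 6 bases that are A or T, then GG) and matches with 1 of the 6 inner bases G or C.
Actc1: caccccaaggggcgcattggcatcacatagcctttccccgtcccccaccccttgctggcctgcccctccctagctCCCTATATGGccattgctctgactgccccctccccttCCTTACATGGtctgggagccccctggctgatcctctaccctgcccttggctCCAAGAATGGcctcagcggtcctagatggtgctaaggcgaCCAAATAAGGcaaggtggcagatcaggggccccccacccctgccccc
Acta1: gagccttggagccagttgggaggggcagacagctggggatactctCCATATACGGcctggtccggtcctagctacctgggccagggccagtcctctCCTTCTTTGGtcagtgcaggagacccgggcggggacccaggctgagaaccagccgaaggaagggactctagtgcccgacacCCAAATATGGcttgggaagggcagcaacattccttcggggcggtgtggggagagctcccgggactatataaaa
Acta2: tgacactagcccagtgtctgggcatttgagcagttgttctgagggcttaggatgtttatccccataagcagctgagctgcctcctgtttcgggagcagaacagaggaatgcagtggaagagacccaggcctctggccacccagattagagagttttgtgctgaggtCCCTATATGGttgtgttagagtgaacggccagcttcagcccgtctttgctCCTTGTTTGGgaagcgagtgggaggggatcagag
Actg1: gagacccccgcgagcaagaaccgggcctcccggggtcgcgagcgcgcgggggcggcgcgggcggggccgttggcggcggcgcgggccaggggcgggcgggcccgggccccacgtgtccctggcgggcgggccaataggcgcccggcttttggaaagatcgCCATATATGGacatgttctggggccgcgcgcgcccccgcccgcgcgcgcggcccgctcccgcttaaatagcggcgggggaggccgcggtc

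Acta1, Actc1 and Actg1 each held 1 exact CArG box, which began 73, 47 and 90 bases before the annotated start in that order. Acta2 held none, but 2 matches with 1 inner base off, and Acta1 held 2 and Actc1 held 3 of these besides. Both patterns read the same on either strand, so each match counts for both. Over 32851 mouse promoters cut to the same window of 250 bases before to 50 bases after the start, 1.63% held an exact box and 8.5% a match with 1 base off. A match describes the letters and does not show that the factor binds there. The motif TATAAA began 7 bases before the annotated start of Acta1 and 33 bases after that of Actc1, on the same strand. Of the 32851 promoters 13.6% held TATAAA on either strand. Whether the annotated starts are those used in heart was not tested. CELF1 is known to bind GU-rich elements in 3′ untranslated regions, and the element TGTTTGT was searched there on the sense strand alone. Actc1 held 1, beginning at base 121 of 184, in the stretch gtgcagttTGTTTGTgcttcaaa with the element in capitals. The other 5 actins held none, and 22.5% of 19915 annotated 3′ untranslated regions and 9.26% of the 10509 with 50 to 1000 bases held one.

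How firmly a read can be assigned differed between the actins. Words of 31 bases that recur in another actin made up 0.767% of the Actg2 transcript, 0.832% of Actc1, 1.48% of Acta2, 4.03% of Acta1, 5.98% of Actg1 and 7.2% of Actb. Matches elsewhere in the genome were more frequent for the cytoplasmic actins, since 97.6% of the words of Actg1 and 39.8% of those of Actb also occurred outside the gene, against 0.693% to 4.45% for the muscle actins. The nearest copy of Actg1 lies at chr4:103235930-103237834 on mm9, has no introns and differs from the transcript at 5 of 1905 aligned bases. How reads with several matches were counted is not given in the sources used here, so the level of Actg1 in particular is uncertain, as is its ratio to other genes. Estimated reads behind a value ran from 13.9 to 226 per column for Actg2, were at least 962 for Acta2 and at least 3730 for the other actins. The counting error of Actg2 was therefore up to 26.8%, while that of Acta2 was at most 3.22%.

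Against control, none of the 6 actins passed the test at 12 hours, none at 24 hours, 2 at 72 hours and 5 at 7 days. Differences below are of log2(RPKM + 1), each with its standard error from limma over all 15 mice, with p adjusted over 10868 tested genes and a threshold of 0.05. Of all tested genes, 0.524% were called higher and 12.7% lower at 12 hours, 5.38% higher and 10.6% lower at 24 hours, 6.39% higher and 5.22% lower at 72 hours, and 26.7% higher and 28.2% lower at 7 days. At an unadjusted p under 0.05, 1 actin passed at 12 hours and 2 at 24 hours. In the F test over all groups 5 of the 6 actins passed, as did 71.3% of all genes, and Acta1 was the exception with an adjusted p of 0.112. The median gene differed from control by -0.30 at 12 hours and by -0.19 at 24 hours, and later by -0.10 (72 hours) and -0.03 (7 days), so an early actin difference of that size did not depart from the median gene. All comparisons with control share the same 3 control mice.

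**Figure D1:**
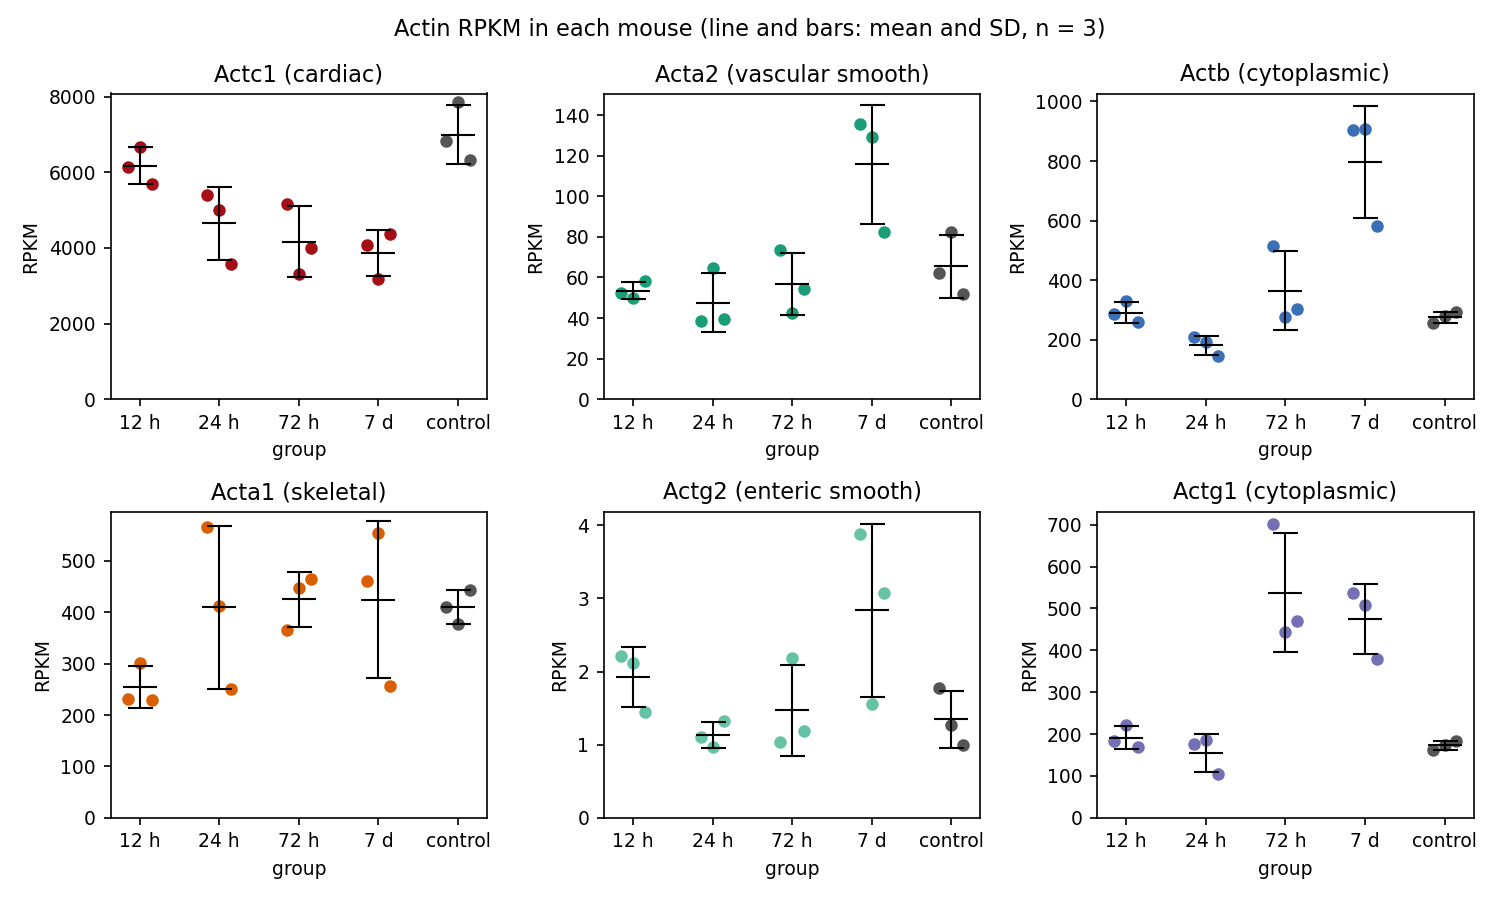
RPKM of each actin (vertical axis) in every mouse (points) of the 4 induced groups and the control group, with a line and bars for the mean and SD of 3 mice. Actg1 at 72 hours and 7 days and Actb at 7 days lie above all control mice, while Actc1 at 24 hours, 72 hours and 7 days lies below them in deposited RPKM, an order that quantile normalization does not keep.

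Cardiac actin was the most abundant actin in every mouse, and its level fell by 0.77 log2 units at 72 hours and fell by 0.86 at 7 days, except that quantile normalization gave 0 at 72 hours and turned the 7 day value to 0.68. Actc1 had 6150.1, 6668 and 5690 RPKM at 12 hours and 5387, 4994 and 3569.9 RPKM at 24 hours. It had 5169.9, 3320.3 and 3990.6 RPKM at 72 hours and 4077, 3192 and 4363 RPKM at 7 days, against 6819, 7849.9 and 6318 RPKM in control mice. The 24 hour, 72 hour and 7 day mice were all below the 3 control mice, whereas the 12 hour mice overlapped them. At 12 hours the difference from control was -0.18 ± 0.22 (adjusted p = 0.573) and at 24 hours -0.61 ± 0.22 (0.0645). It was -0.77 ± 0.22 (0.0313) at 72 hours and -0.86 ± 0.22 (0.00321) at 7 days. Without the 24 hour mouse A3254 the 24 hour value passed too. In the order of levels the 12 hour and 24 hour groups did not overlap, while 24 hours, 72 hours and 7 days did overlap in turn. The 7 day and 72 hour mice differed by -0.09 ± 0.22 (adjusted p = 0.759).

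The 72 hour call of Actc1 was not firm. It was lost in 11 of 17 alternatives, among them leaving out any 1 of the 3 control mice or of the 72 hour mice A3281 and A3264. The 3 control mice and the 72 hour mouse A3278 share a code in the column headers whose meaning is not stated. Within that code, with 1 mouse against 3, the difference was -0.43. With the code as a term in the fit it was -0.43 (adjusted p = 0.374) at 72 hours and -0.41 (0.315) at 7 days. Since A3278 alone links the control mice to the other codes, both 72 hour values are the same contrast of that mouse with the control mice. Both are among the 17 alternatives and among those that lost the call. The 7 day value with the code as a term rests on the same link. Genes listed for the atrium, which had been cut away, summed to 39.2 to 105 RPKM at 72 hours, against 101 to 116 RPKM in control mice. Myh14 held 33.7, 35.1 and 37.3 RPKM of the control sums. Of all tested genes 5.22% were called lower at 72 hours, and of the 4 tested genes listed for the atrium 2 were. These were Myl7, with 18.4 RPKM in A3278, 2.46 in A3281 and 1.8 in A3264, and Myl4, with 35.6, 10.3 and 9.34 RPKM. For both genes A3278 lay within the control range, and A3281 and A3264 lay below it. The part of the atrial markers in the Actc1 value was not tested.

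In bulk RNA fewer heart muscle cells and less RNA per cell cannot be told apart. A set of 7 cardiomyocyte markers (Myh6, Tnnt2, Tnni3, Actn2, Ryr2, Mybpc3 and Myl2) summed to 6560 to 8570 RPKM at 7 days, against 32000 to 32900 RPKM in control mice. Of the 7, 5 were called lower, as were 28.2% of all tested genes. Actn2, the alpha-actinin of the Z disc, and Ryr2, the calcium release channel, were not, with differences of -0.47 ± 0.21 (adjusted p = 0.0736) and 0.37 ± 0.22 (0.167). Myh6, the adult myosin heavy chain, differed by -3.07 ± 0.22, Myl2, a regulatory light chain, by -2.85 ± 0.24, and Tnni3, cardiac troponin I, by -2.77 ± 0.25. Per 100 RPKM of the summed markers there were 56.6, 37.3 and 66.5 RPKM of Actc1 at 7 days, against 20.8, 23.8 and 19.7 RPKM in control mice. At 72 hours the same ratio was 18.2, 15.8 and 19.2, and at 24 hours 17.8, 17.6 and 14.5. So the ratio to the summed markers lay below all control mice at 24 and 72 hours and above all of them at 7 days. It averaged 16.6 ± 1.86 at 24 hours, 17.7 ± 1.79 at 72 hours and 53.5 ± 14.9 at 7 days, against 21.4 ± 2.14 in control mice (SD, n = 3 each). The exact permutation p was 0.1 for each, two-sided, the smallest that 3 against 3 mice allow, and 0.157 when adjusted over the 36 ratios and sums compared. These are ratios within a library, which do not change when a library is rescaled. They depend on the marker, because the sum is held by the abundant markers that were lower at 7 days. Against each marker alone, Actc1 at 7 days lay above all control mice for 4 of the 7 (Myh6, Tnni3, Mybpc3 and Myl2), overlapped them for Tnnt2 and Actn2 and lay below them for Ryr2. Per RPKM of Ryr2 there were 43.9, 39.2 and 40.2 RPKM of Actc1 at 7 days, against 87.3, 130 and 78.6 RPKM in control mice. Per RPKM of Actn2 there were 5.83, 4.75 and 8.23 RPKM, against 7.75, 9.23 and 7.2 RPKM in control mice. Single markers put Actc1 below all control mice for 3 of 7 at 24 hours and 1 of 7 at 72 hours, and the others overlapped.

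Skeletal actin, the fetal form, passed the test against control at no time. Acta1 had 231.8, 300.9 and 229.65 RPKM at 12 hours, 566.6, 411.7 and 249.8 RPKM at 24 hours and 364.7, 446.5 and 465.3 RPKM at 72 hours. At 7 days it had 461.3, 555.1 and 256.7 RPKM, against 410.9, 376.6 and 442.6 RPKM in control mice. The 12 hour mice lay below the control mice and the other 3 times overlapped them. The difference at 12 hours was -0.70 ± 0.28 (adjusted p = 0.0971), or -0.40 relative to the median gene, and did not pass. At 24 hours it was -0.08 ± 0.28, at 72 hours 0.05 ± 0.28 and at 7 days -0.02 ± 0.28 (adjusted p = 0.86, 0.929 and 0.96). Acta1 was also the least repeatable of the abundant actins, since the 2 columns of the 72 hour mouse A3264 gave 330.8 and 599.8 RPKM, and high-to-low ratios over the 5 mice with 2 columns were 1.11 to 1.81, against 1.02 to 1.24 for Actc1.

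Set against the summed markers of heart muscle cells, Acta1 lay above control in each 7 day mouse, and against 2 of the 7 markers alone it did not. Its RPKM per 100 RPKM of the 7 markers were 6.41, 6.48 and 3.91 at 7 days, against 1.25, 1.14 and 1.38 in control mice. No 7 day mouse overlapped the control mice, and the mean of 5.6 ± 1.46 was 4.45 times that of 1.26 ± 0.119 (SD, n = 3 each, exact permutation p = 0.1). Against single markers, 5 of the 7 put all 7 day mice above control, while Actn2 and Ryr2 did not. Per RPKM of Ryr2 there were 4.96, 6.82 and 2.36 RPKM of Acta1 at 7 days, against 5.26, 6.25 and 5.5 RPKM in control mice, and the groups overlapped. Per RPKM of Actn2 there were 0.66, 0.825 and 0.484 RPKM, against 0.467, 0.443 and 0.504 RPKM in control mice, which overlapped too. The ratio to the sum averaged 0.94 at 12 hours, when all 3 mice were below control, and 1.45 at 24 hours and 1.88 at 72 hours, when they overlapped it. Myh4, a myosin of fast skeletal muscle, had 6.49, 12.1 and 6.26 RPKM at 7 days, against 77.4, 77.5 and 76.8 RPKM in control mice. Of 7 tested skeletal muscle markers 4 were lower at 7 days and none higher, beside 28.2% lower and 26.7% higher of all tested genes. They were the fast myosins Myh1, Myh2 and Myh4 and the creatine kinase Ckm, which is abundant in heart too. Ckm had 118 to 232 RPKM at 7 days, against 1140 to 1470 RPKM in control mice. Without Ckm the other 7 markers of the list summed to 15.1 to 31.6 RPKM at 7 days, against 162 to 175 RPKM in control mice. Mylpf, Tnnt3, Tnni2 and Tnnc2, other fast muscle genes, had 0 to 2.65 RPKM each at 7 days, against 0 to 1.64 RPKM in control mice, and none of the 3 tested passed.

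**Figure D2:**
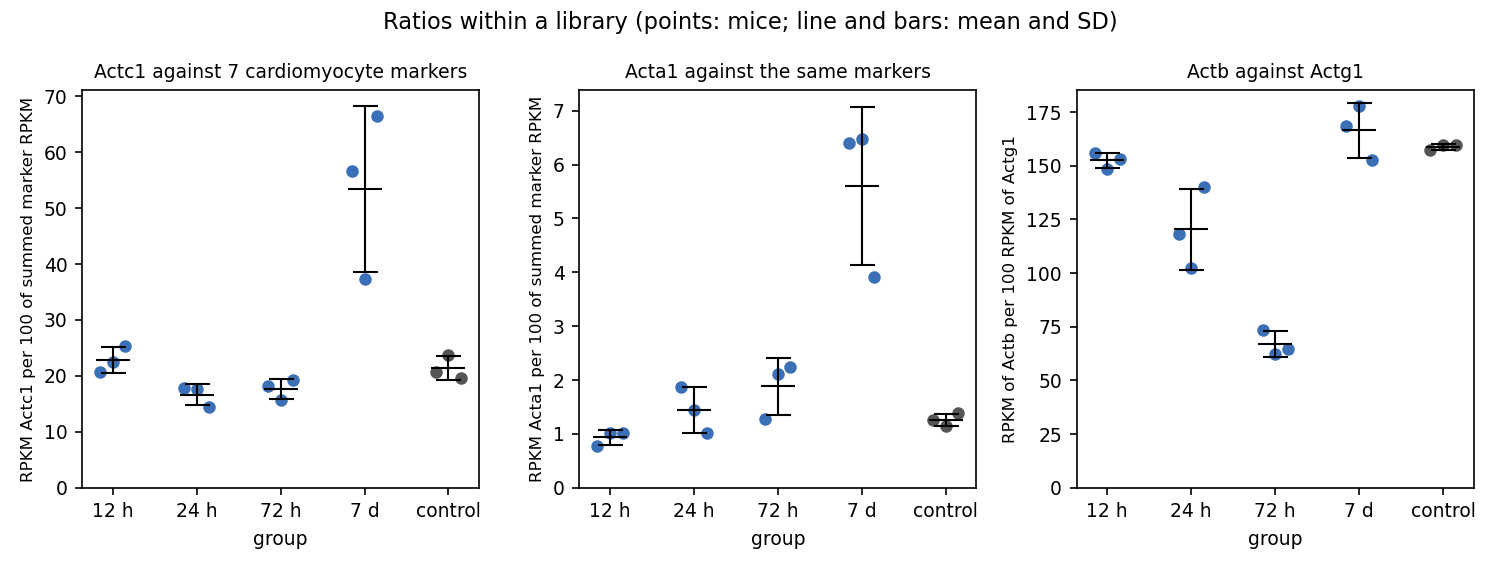
Ratios within each library, for Actc1 and Acta1 per 100 RPKM of 7 summed cardiomyocyte markers and for Actb per 100 RPKM of Actg1 (vertical axes), by group with points for mice and bars for the mean and SD. Both sarcomeric actins lie above control at 7 days against this sum, which was not so against Actn2 or Ryr2 alone, and Actb per Actg1 is 66.9 at 72 hours, against 159 in control mice.

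Gamma actin of the cytoplasm rose at 72 hours and at 7 days, and averaged 537.9 RPKM at 72 hours, against 173.6 RPKM in control mice. Actg1 had 183, 222.4 and 168.9 RPKM at 12 hours and 175.8, 186 and 103.5 RPKM at 24 hours. At 72 hours it had 700.4, 443.6 and 469.5 RPKM and at 7 days 536.7, 509.2 and 380.3 RPKM, against 162.5, 175 and 183.2 RPKM in control mice. All 6 mice of 72 hours and 7 days lay above every mouse of the other groups, and the 2 later groups overlapped each other. The early differences from control were 0.13 ± 0.23 (adjusted p = 0.701) at 12 hours and -0.21 ± 0.23 (0.541) at 24 hours, and the later ones 1.60 ± 0.23 (0.000385) at 72 hours and 1.43 ± 0.23 (6.96e-05) at 7 days. The 72 hour mice exceeded the 24 hour mice by 1.80 ± 0.23 (0.000107), and the 7 day mice differed from the 72 hour mice by -0.16 ± 0.23 (0.596). These calls against control held in all 17 alternatives at 72 hours and all 16 at 7 days. The mouse A3278, which shares the column code of the control mice, had the highest value of all, and within that code alone the difference was 2.01. Of the 17 alternatives, the code as a term and the columns with that code alone both rest on this mouse at 72 hours.

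Markers of other cell types were read beside the 72 hour rise of Actg1. Fibroblast markers summed to 528 to 711 RPKM at 72 hours, against 550 to 648 RPKM in control mice, and macrophage markers to 77.7 to 98.2 RPKM, against 70.9 to 85.9 RPKM. Myofibroblast markers summed to 26.6 to 38.4 RPKM, against 23.5 to 38.1 RPKM in control mice. By limma none of the 8 fibroblast, 6 macrophage and 6 myofibroblast genes passed at 72 hours, and none of them had an unadjusted p under 0.05. None of the 7 smooth muscle, 6 pericyte and 6 endothelial genes passed either, with 1 unadjusted p under 0.05 in each of these lists. Of 7 cardiomyocyte markers 1 was lower, the Z-disc protein Actn2. Of all tested genes 6.39% were called higher and 5.22% lower at 72 hours. The part of any cell type in the 72 hour value of Actg1 was not tested.

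Beta actin, often used as a standard for other genes, rose at 7 days, and its 24 hour mice had the lowest values of all. Actb had 285.2, 330.8 and 258.3 RPKM at 12 hours, 208.1, 190.8 and 145.2 RPKM at 24 hours and 515.9, 276.7 and 303.3 RPKM at 72 hours. At 7 days it had 905.2, 905.8 and 581 RPKM, against 255.6, 279.8 and 292.3 RPKM in control mice. The 7 day mice lay above all other mice, the 24 hour mice below every other mouse, and the 12 and 72 hour groups overlapped control. Actb differed from control by 0.07 ± 0.24 (adjusted p = 0.84) at 12 hours and by -0.62 ± 0.24 (0.0781) at 24 hours. The difference was 0.35 ± 0.24 (0.349) at 72 hours and 1.50 ± 0.24 (5.27e-05) at 7 days. At 72 hours the value passed with the column code as a term, at 0.90 (adjusted p = 0.046), and with the GC correction, at 0.49 (0.05, just under the threshold). Within the code of the control mice the difference was 0.90 too. Both values of 0.90 come from A3278 against the control mice, so the pass with the code as a term rests on that 1 mouse. At 72 hours A3278 had the highest of the 3 Actb values, and without that mouse the difference was 0.07 (adjusted p = 0.827). The 7 day call held in all 16 alternatives, with adjusted p up to 0.000544. With the column code as a term the 7 day differences were 2.38 for Actb, 2.03 for Actg1 and 1.44 for Acta2.

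Between times, Actb gained in both later steps. It was higher at 72 hours than at 24 hours by 0.97 ± 0.24 (adjusted p = 0.0155), and that call was lost without the 24 hour mouse A3262 (adjusted p = 0.0801), without the 72 hour mouse A3278 (0.0674) and in a limma fit of the 2 compared groups alone (0.103). The 7 day mice were above the 72 hour mice by 1.15 ± 0.24 (0.000853). No actin passed between 12 and 24 hours, where 2 had an unadjusted p under 0.05 and the largest difference was that of Actb at -0.69 ± 0.24 (adjusted p = 0.112). In that step 3.35% of all genes were called higher and 0.57% lower, in the step from 24 to 72 hours 7.67% higher and 2.57% lower, and in the step from 72 hours to 7 days 22.6% higher and 22.3% lower. The actins called higher were 2 of 6 in the second step and 3 of 6 in the last one, and none was called lower.

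The balance of the cytoplasmic actins differed most from control at 72 hours. Actb per 100 RPKM of Actg1 was 155.9, 148.7 and 153 at 12 hours, 118.4, 102.6 and 140.3 at 24 hours, then 73.7, 62.4 and 64.6 at 72 hours. At 7 days it was 168.7, 177.9 and 152.8, against 157.3, 159.8 and 159.5 in control mice. The 3 control mice differed by little, and the 12, 24 and 72 hour mice all lay below them, whereas the 7 day mice overlapped them. The mean of 66.9 ± 5.98 at 72 hours was 0.421 of the control mean of 159 ± 1.41 (SD, n = 3 each, exact permutation p = 0.1, the smallest possible, and 0.157 adjusted over 36). Mouse A3278 had 73.7 within the column code of the control mice. Repeat columns of the other 72 hour mice gave 60.8 to 69.3. How reads of the Actg1 copies were counted could move all of these ratios, and that was not tested.

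**Figure D3:**
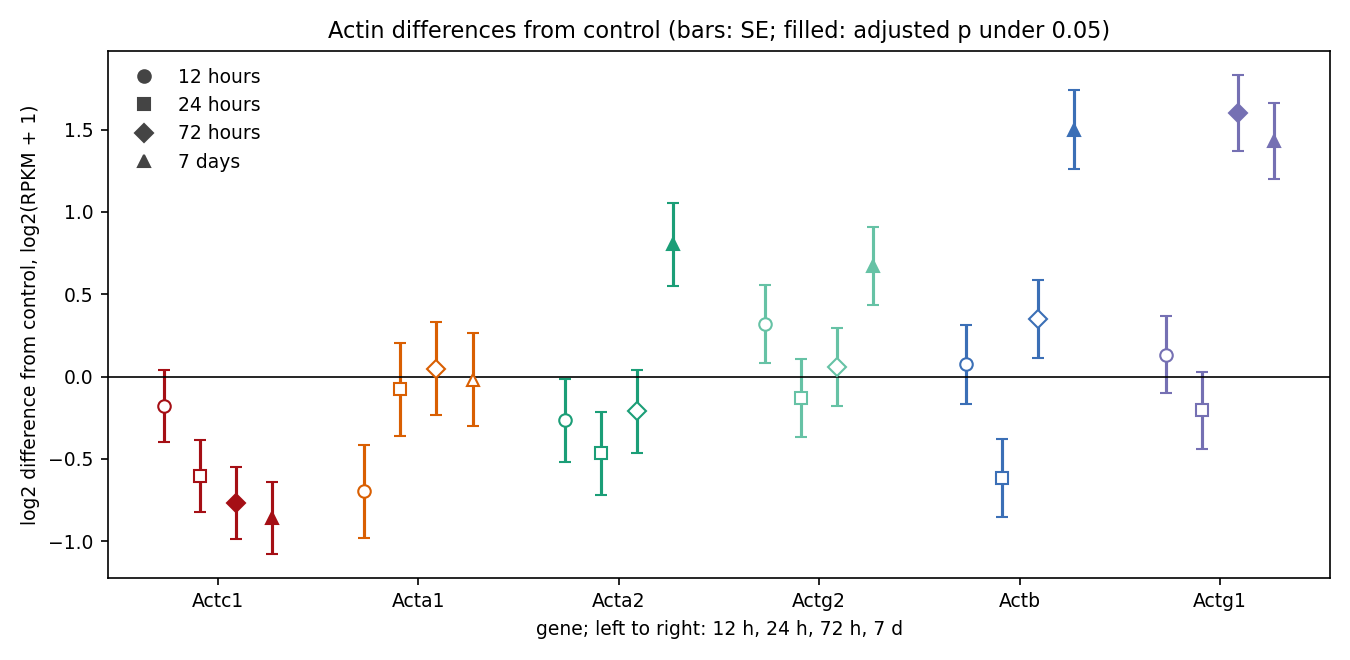
Difference of each actin from control on the log2(RPKM + 1) scale (vertical axis) at 12 hours, 24 hours, 72 hours and 7 days, with bars for the standard error and filled symbols for an adjusted p under 0.05. Actg1 is called at 72 hours and 7 days, Actb, Acta2 and Actg2 at 7 days, and Actc1 at both later times in the negative direction, which turns positive at 7 days under quantile normalization.

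Smooth muscle actins were called higher at 7 days alone, from low levels. Acta2 had 52.2, 50 and 58.3 RPKM at 12 hours, 38.8, 64.7 and 39.5 RPKM at 24 hours and 73.4, 42.8 and 54.3 RPKM at 72 hours. At 7 days it had 135.8, 129.3 and 82.3 RPKM, against 62.1, 82.5 and 51.8 RPKM in control mice. The lowest 7 day mouse, A3269, fell within the control range, so the groups overlapped. The difference was 0.80 ± 0.25 (adjusted p = 0.0125) at 7 days and lost its call without A3280 (0.0684), A3345 (0.0565) or A3283 (0.0513). Against the 72 hour mice, which did not overlap the 7 day mice, it was 1.01 ± 0.25 (0.00354) and held in all 16 alternatives. At 12, 24 and 72 hours the differences from control were -0.27 ± 0.25, -0.46 ± 0.25 and -0.21 ± 0.25 (adjusted p = 0.46, 0.194 and 0.613).

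Actg2, the enteric form, had the lowest level of the 6 actins. It had 2.21, 2.12 and 1.45 RPKM at 12 hours, 1.1, 0.97 and 1.32 RPKM at 24 hours and 1.04, 2.18 and 1.19 RPKM at 72 hours. At 7 days it had 3.89, 1.56 and 3.08 RPKM, against 1.77, 1.27 and 1 RPKM in control mice, and the groups overlapped through the mouse A3283. The difference at 7 days was 0.67 ± 0.24 (adjusted p = 0.0238), and 0.62 ± 0.24 (0.0437) against the 72 hour mice. Both calls were weak, since the first was lost in 6 of 15 alternatives, among them without A3259, A3280, A3345 or A3269, and the second in 10 of 15, among them without A3278, A3264, A3345 or A3269. At 12, 24 and 72 hours the differences from control were 0.32, -0.13 and 0.06 (adjusted p = 0.337, 0.714 and 0.898).

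Markers of the cells that could supply these actins moved unequally at 7 days, when the Cugbp1 value was at the control level. Myofibroblast markers summed to 484 to 584 RPKM at 7 days, against 23.5 to 38.1 RPKM in control mice, and 5 of 6 were higher, led by Ltbp2 (3.08 ± 0.18), a matrix protein, and Postn (4.72 ± 0.29), the matrix protein periostin. Fibroblast markers summed to 2020 to 2690 RPKM, against 550 to 648 RPKM, with 6 of 8 higher, and macrophage markers to 849 to 1140 RPKM, against 70.9 to 85.9 RPKM, with all 6 higher. Contractile smooth muscle genes were split, with 3 higher and 2 lower of 7, namely Cald1 at 1.03 ± 0.19, Smtn at -1.69 ± 0.24 and Myh11 at -0.91 ± 0.16 among them, and their sum was 109 to 129 RPKM, against 121 to 128 RPKM. Pericyte markers had 2 higher and 2 lower of 6 and summed to 163 to 194 RPKM, against 197 to 237 RPKM, and endothelial markers had 4 lower and none higher of 6 and summed to 146 to 175 RPKM, against 199 to 216 RPKM. Of 4 tested genes listed for enteric smooth muscle, Des was higher (0.59 ± 0.23) and Tmem16a lower (-0.73 ± 0.19). Des had 876, 941 and 980 RPKM in control mice, where Actg2 had 1 to 1.77 RPKM. A call of Des therefore cannot be read as one of enteric smooth muscle cells. Of 4 tested genes listed for the atrium, Myh14 (-1.60 ± 0.21) and Sln (-2.52 ± 0.78) were lower and none was higher. Myh14 had 33.7, 35.1 and 37.3 RPKM in control ventricle, from which the atria had been cut away. Whether its RNA came from atrial tissue was not tested. No marker was at 0 in all mice of a group. The part of any cell type in the 7 day values of Actb, Actg1, Acta2 and Actg2 was not tested, and more cells of a type cannot be told apart from more RNA per cell. Early calls in these lists were all lower in the main fit. At 12 hours 3 smooth muscle, 2 skeletal muscle and 1 each of the endothelial, cardiomyocyte, atrial and enteric smooth muscle genes were called, and at 24 hours 3 skeletal muscle and 1 each of the smooth muscle, pericyte, cardiomyocyte and enteric smooth muscle genes. The enteric genes were Des at 12 hours and Myocd at 24 hours, and the gene of the atrial list at 12 hours was Myh14. Of all tested genes, 0.524% were called higher and 12.7% lower at 12 hours, and 5.38% higher and 10.6% lower at 24 hours. At 7 days the shares were 26.7% higher and 28.2% lower. No list was tested against these shares. The early shares depend on the scaling between libraries. At 12 hours 57 genes were called higher and 1375 lower in the main fit. Median-of-ratios scaling gave 73 and 156, and quantile normalization 51 and 143. At 24 hours the main fit gave 585 and 1151, and median-of-ratios scaling 923 and 743. Which early calls of list members held with other scaling is not given here.

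Sarcomeric actins held less, and cytoplasmic actins more, of the summed actin RPKM in every 72 hour and 7 day mouse than in any control mouse. Summed RPKM of the 6 actins averaged 6960 in the 12 hour mice, 5450 in the 24 hour mice, 5550 in the 72 hour mice and 5690 in the 7 day mice, against 7920 in control mice. Actc1 held 75.8%, 73.3% and 75.5% of that sum at 72 hours and 66.6%, 60.3% and 77% at 7 days, against 88.4%, 89.6% and 86.7% in control mice. Both late groups lay below every control mouse. Together Actb and Actg1 held 17.8%, 15.9% and 14.6% at 72 hours and 23.6%, 26.7% and 17% at 7 days, against 5.42%, 5.19% and 6.52% in control mice. At 12 hours these cytoplasmic actins held 6.92% ± 0.339, above all control mice, and at 24 hours 6.17% ± 0.236, which overlapped the control mean of 5.71% ± 0.713 (SD, n = 3 each).

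**Figure D4:**
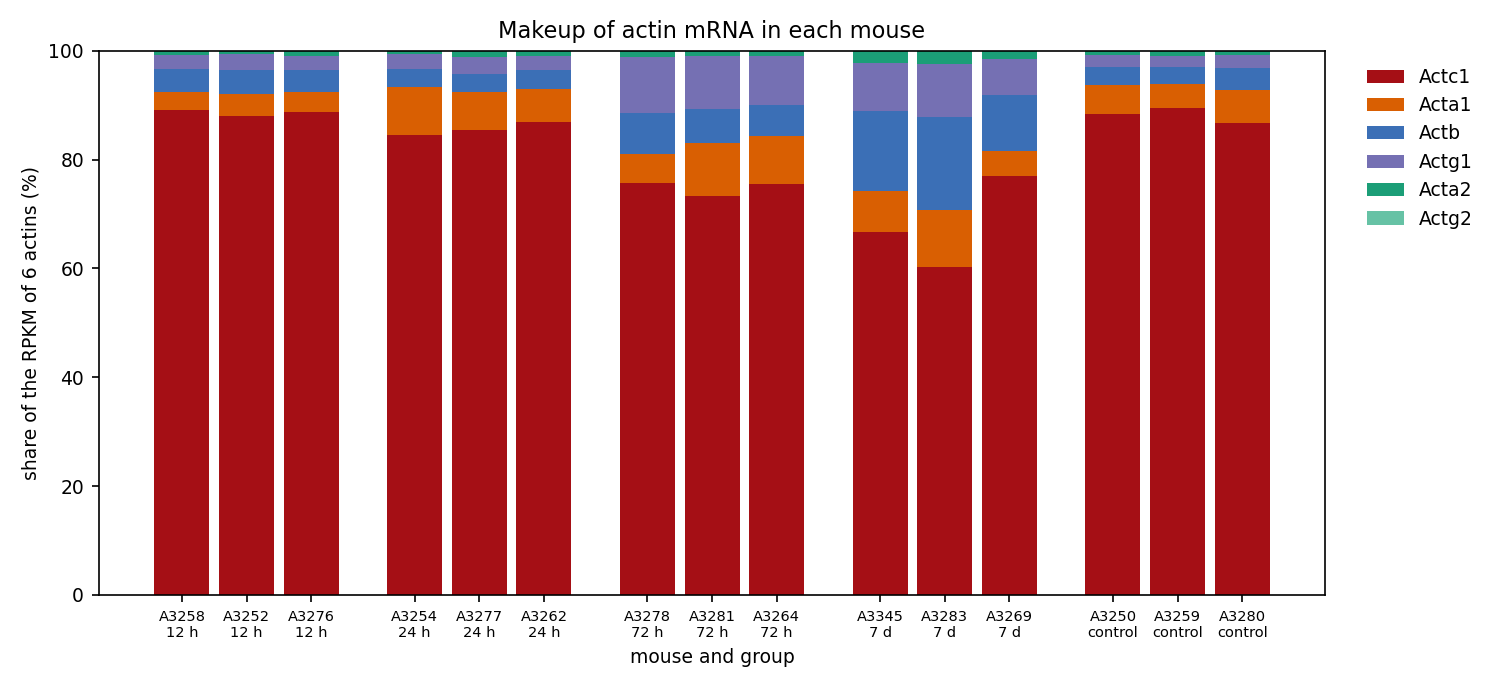
Share of the summed RPKM of 6 actins (percent, vertical axis) held by each actin in every mouse, with mice grouped by time and control mice at the right. Actc1 averaged 74.8% at 72 hours and 68% at 7 days, against 88.2% in control mice, and Actb and Actg1 fill most of the gap.

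Among the single actins, Actg1 averaged 2.74% in the 12 hour mice, 2.82% in the 24 hour mice, 9.65% in the 72 hour mice and 8.37% in the 7 day mice, against 2.21% in control mice. Actb averaged 4.18%, 3.35%, 6.47% and 14.1% over the same times, against 3.51%. The smooth muscle actins together held 0.802%, 0.914%, 1.04% and 2.09%, against 0.836%, of which Actg2 was at most 0.0491% on average. Acta1 averaged 3.64%, 7.33%, 8% and 7.52%, against 5.23%, with the 12 hour mice below and the 24 hour mice above all control mice. Over 24 comparisons of a share with control, 14 did not overlap, each with an exact permutation p of 0.1 and an adjusted p of 0.171, so none passed. Shares sum to a whole, so a higher share of one actin lowers the others.

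Genes that act on actin were read from 6 lists, of which members called at a threshold of 0.05 are counted. Among all tested genes the shares called lower were 12.7%, 10.6%, 5.22% and 28.2% over the 4 times, earliest first. Those called higher were 0.524%, 5.38%, 6.39% and 26.7%. None of the 6 lists was tested against these shares, so a count alone does not set a list apart from all genes. The early shares called lower depend on the scaling between libraries, as given above. In the serum response factor list, with 14 tested genes, 4 were lower at 12 hours, 2 at 24 hours and 3 at 72 hours with none higher, and at 7 days 2 were higher and 6 lower. Srf itself, the factor, had 25.5, 25.3 and 26.5 RPKM at 12 hours, against 44.4, 50.6 and 54.9 RPKM in control mice, a difference of -0.92 ± 0.27 (adjusted p = 0.0371). Myocd, its partner myocardin, differed by -0.71 ± 0.20 at 24 hours (0.0259). Fhl2, a LIM-domain cofactor, differed by -0.92 ± 0.28 at 24 hours, -0.95 ± 0.28 at 72 hours and -1.34 ± 0.28 at 7 days. Its relative Fhl1 differed by -0.92 ± 0.18 at 72 hours and by 2.36 ± 0.18 at 7 days, with 423, 405 and 396 RPKM at 7 days, against 79, 88.9 and 68.6 RPKM in control mice. The median of the list was -0.39, -0.44, -0.42 and -0.45 over the 4 times, below that of all genes at each of them.

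Proteins that bind actin monomers or turn filaments over had 22 tested genes. Of these 2 were lower at 12 hours, 1 higher and 3 lower at 24 hours, 2 lower at 72 hours, and 15 higher and 4 lower at 7 days, with a median of 0.71 at 7 days. The twinfilins, which bind monomers and filament ends, went opposite ways at 7 days. Twf1 had 24.7, 30 and 30.6 RPKM, against 5.83, 6.96 and 6.56 RPKM in control mice, a difference of 1.98 ± 0.19. Twf2 had 36.9, 37.4 and 29.1 RPKM, against 110, 121 and 176 RPKM in control mice, a difference of -1.93 ± 0.19. Cfl1, the cofilin of non-muscle cells that severs filaments, differed by 1.81 ± 0.22 at 7 days, and Cfl2, the muscle cofilin, by 0.91 ± 0.26 at 24 hours (adjusted p = 0.03).

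Among 24 tested genes of filament nucleation and growth, 2 were lower at 12 hours, 2 higher and 2 lower at 24 hours, 1 higher and 2 lower at 72 hours, and 12 higher and 4 lower at 7 days. Of 9 subunits of the Arp2/3 complex, which starts branched filaments, 1 was lower at 12 hours, 1 higher and 1 lower at 24 hours, 1 higher at 72 hours, and 7 higher and 1 lower at 7 days. Actr2 differed by 0.73 ± 0.19 at 24 hours and 0.67 ± 0.19 at 72 hours, and at 7 days Actr3 differed by 1.70 ± 0.18 and Arpc2 by 1.55 ± 0.17. The subunits called lower were Arpc5 at 12 hours (-0.77 ± 0.19), Arpc1a at 24 hours (-0.77 ± 0.20) and Arpc5l at 7 days (-1.22 ± 0.23). Genes outside the complex were lower too. Lmod3, a leiomodin of striated muscle, had 6.3, 3.98 and 4.95 RPKM at 7 days, against 42.2, 40.2 and 41.4 RPKM in control mice, a difference of -2.82 ± 0.18. Fhod3, a formin needed for heart sarcomeres in mice, differed by -0.50 ± 0.15 at 12 hours and -0.93 ± 0.15 at 72 hours.

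Capping and length control, with 12 tested genes, had 2 lower at 12 hours, 2 higher and 1 lower at 24 hours, 1 higher and 1 lower at 72 hours, and 5 higher and 4 lower at 7 days. Capza1, a subunit of the protein that caps barbed ends, had 26.1, 35.7 and 36.4 RPKM at 72 hours and 41.9, 41.1 and 48.9 RPKM at 7 days, against 11.6, 11.9 and 12.7 RPKM in control mice. Its differences were 1.36 ± 0.20 (adjusted p = 0.000407) and 1.78 ± 0.20 (1.34e-06), with no overlap at either time. Tmod1, a tropomodulin that caps pointed ends, differed by -0.61 ± 0.19 at 72 hours, and Tmod4, another of them, by -2.32 ± 0.23 at 7 days. In the list of actin folding and N-terminal processing, with 17 tested genes, 1 was lower at 12 hours, 1 higher and 1 lower at 24 hours, 1 higher at 72 hours, and 6 higher and 1 lower at 7 days. Vbp1, a prefoldin subunit that hands new actin to the chaperonin, was the one higher at 24 and 72 hours (1.38 ± 0.25 and 0.89 ± 0.25), and Nat6, also called Naa80, which acetylates the actin N-terminus, was the one lower at 12 and 24 hours (-0.72 ± 0.21 and -0.95 ± 0.21).

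Cross-linkers and membrane anchors, with 21 tested genes, had 4 lower at 12 hours, 2 higher and 3 lower at 24 hours, 1 higher at 72 hours, and 11 higher and 3 lower at 7 days. Plec1, the linker plectin, differed by -1.10 ± 0.22 and Flnc, the filamin of muscle, by -0.90 ± 0.19 at 12 hours. Pls3, a bundling plastin, was the one called at 72 hours (0.57 ± 0.17), after 1.08 ± 0.17 at 24 hours. At 7 days Actn1, the alpha-actinin of non-muscle cells, had 85.5, 69.8 and 72 RPKM, against 16.6, 18.1 and 16.4 RPKM in control mice, a difference of 2.09 ± 0.19. Lcp1, the plastin of leukocytes, differed by 2.86 ± 0.31 and Msn, the membrane linker moesin, by 1.90 ± 0.27. At 7 days the list medians were 0.55 for nucleation, 0.07 for capping, 0.09 for folding and 0.67 for cross-linkers, beside -0.03 for all genes.

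Genes whose pattern over the 15 mice was most like that of each actin were sought among 7473 genes with a mean of at least 5 RPKM (7474 for Actg2), by the root mean square difference of centred log2(RPKM + 1). For Actb these were Plekhq1 at 0.178, Tnfrsf1a, a receptor for tumour necrosis factor, at 0.193 and EG433182 at 0.196, where the spread of Actb itself was 0.74. For Actg1 the nearest were Sulf2 at 0.257, Slc3a2 at 0.28 and Plk2 at 0.328 beside a spread of 0.803, so no gene followed it as closely. Actc1 had 2810432L12Rik at 0.14, Zfpm2, a cofactor of heart GATA factors, at 0.15 and Aig1 at 0.156 beside 0.39. Acta2 had Prkag2 at 0.182, Dpp3 at 0.203 and Pdgfrb, the growth factor receptor of pericytes, at 0.205 beside 0.524. Acta1 had Pparg at 0.217, Aff1 at 0.238 and Txlna at 0.25 beside 0.426, and Actg2 had Ntan1 at 0.231, Pon3 at 0.235 and Med6 at 0.243 beside 0.379. For these last 2 actins the difference was over 0.5 of their own spread.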

How the data were processed

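Polyadenylated RNA of ventricle from 15 mice was sequenced in pairs of reads, per the labels' protocols. The authors deposited 1 table of RPKM, rounded to 2 decimals, for 16042 genes in 20 columns, since 5 mice have 2 columns each, which were averaged here. TopHat and Bowtie aligned the reads to mm9, per the submitters' processing notes. Their versions, the counter, the strand and the treatment of reads with several matches were not given in the sources used here. Each column carries 1 of 9 codes of unstated meaning, and the codes of the 24 hour mice occur in no other group. Mice are separate animals, and mouse numbers from the labels name the replicates and pair none across groups.

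No read counts were given. Depth was estimated from the step between RPKM values of 111 olfactory receptor genes and came to 10.4 to 52.2 M reads in a column (median 25.1 M). This is a rough estimate, and those of the control mice A3259 and A3280 rest on 11 values each. Counting errors derived from it cover counting alone. One limma fit (3.58.1, R 4.3.3, lmFit, contrasts.fit, eBayes with trend) of log2(RPKM + 1) held all 15 mice and the 10868 genes with a mean of at least 1 RPKM. Within each comparison p was adjusted by Benjamini-Hochberg, with a threshold of 0.05. Ratios and shares within a library had two-sided exact permutation tests over mice. The fit and the depth estimate were tested on simulated data. Of 60 simulated depths 60 were recovered to within 5%. The simulated depths did not reach down to those estimated for A3259 and A3280 (11.9 and 10.4 M), so these were not covered.

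The members, the 16 gene lists (6 of actin-linked pathways, 10 of cell type markers) and the tests were chosen with earlier results of these data known. Of 185 list members 181 were found in the table. Named are the actins, Celf1, up to 3 called members per list and time by smallest p, of which a part is given, and the 3 genes nearest to each actin. Position, transcript models and sharing of words of 31 bases came from NCBIM37 and GENCODE vM1, with copies found by minimap2 2.31-r1302, and promoters from RefSeq.

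Alternatives were a pseudocount of 0.1, no filter, a mean of at least 5 RPKM, median-of-ratios scaling, quantile normalization, a fit of the 2 compared groups, robust empirical Bayes, the first column of each mouse, a lowess correction for GC content with a span of 0.3, a term for the column code, in which repeat columns of a mouse were a random block (16 columns, correlation 0.283, no 24 hour mice), and leaving out each mouse. The columns with the code of the control mice alone, and the first column and left-out mice for ratios, were added after seeing the data.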

Additional observations from a re-analysis of the deposited data

Results flagged for a closer look

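Effects against the shared control mice differed between successive times for 5 values, by the direct contrast of the times with limma. The 72 hour mice exceeded the 24 hour mice by 0.97 log2 units in Actb (adjusted p = 0.0155) and by 1.80 in Actg1 (0.000107). The 7 day mice exceeded the 72 hour mice by 1.15 in Actb (0.000853), by 1.01 in Acta2 (0.00354) and by 0.62 in Actg2 (0.0437). Groups of 3 mice were not tested for outlying samples.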

How the results depend on the processing

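No paired analysis was possible because the mouse numbers are not shared between groups. At 12 hours against control, no actin passed, and a fit of the 2 compared groups gave 1 (Acta1, adjusted p = 0.00714). At 24 hours none passed, and a mean of at least 5 RPKM gave 1 (Actc1), the 2-group fit gave 1 (Actb), and leaving out a mouse gave 0 to 1 (Actc1, without A3254). At 72 hours the count of 2 became 1, Actg1 alone, with no filter, quantile normalization, the 2-group fit, the first column of each mouse and the columns with the code of the control mice, and leaving out a mouse gave 1 to 2. It became 3 with the GC correction (Actb, Actc1 and Actg1), and with the column code as a term the 2 were Actb and Actg1, without Actc1. At 7 days the count of 5 became 3 (Actb, Actg1 and Acta2) with the column code as a term, and leaving out a mouse gave 3 to 5, with 3 without A3280 or A3345. Between 12 and 24 hours the count of 0 became 1 (Actb) with median-of-ratios scaling, quantile normalization and the GC correction. Between 24 and 72 hours the count of 2 became 1 (Actg1) in the 2-group fit, and leaving out a mouse gave 1 to 2, with 1 without A3262 or A3278. Actc1 reversed under quantile normalization, to 0.68 at 7 days against control and 0.68 against the 72 hour mice. Added after seeing the data, each cardiomyocyte marker alone in place of the sum turned some log2 ratios round against control. For Actc1 the main 1.28 at 7 days became -0.39 with Actn2 and -1.23 with Ryr2, the 0.09 at 12 hours became -0.046 with Tnnt2, -0.40 with Ryr2 and -0.20 with Myl2, and the -0.37 at 24 hours became 0.18 with Tnni3. For Acta1 the 2.12 at 7 days became -0.39 with Ryr2, and the 0.16 at 24 hours became -0.41 with Tnnt2 and -0.65 with Ryr2. The cause of these changes between settings was not tested. Actb and Acta2 at 7 days against 72 hours, Actb at 7 days against control and all 3 calls of Actg1 held in every alternative run for them. The code of the control mice is shared with 1 induced mouse alone, so group and code can hardly be separated. At 72 hours against control the code as a term and the columns with that code alone gave the same estimates. Both rest on the mouse A3278 and are not separate checks. Depth limits Actg2, whose values rest on few reads.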
